A study of Homo sapiens with 12 samples.

Results

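Cholesterol and fatty acid synthesis, transport and their control were followed through 41 genes, chosen by symbol from lists of the pathway's enzymes, sensors, transporters and regulators, out of 21893 genes in the deposited table. The choice was made with earlier results of these data known. All 41 symbols were in the table, and 40 of them passed the filter on low counts (the sterol exporter gene *ABCG1*, with 0 to 3 reads per library, did not). The members comprised 7 mevalonate and isoprenoid genes, 11 genes of the steps that lead to cholesterol through squalene, 5 genes of sterol sensing, 4 of uptake and movement inside the cell, 4 of efflux and its control, and 10 of fatty acid synthesis and modification. The cells were CCD-18Co, 1 established line of myofibroblasts from normal human colon, kept in medium with 10% foetal bovine serum. They received 100 nM 1,25(OH)2D3 (the active hormone form of vitamin D), 100 ng/ml Wnt3A (a secreted protein that activates the Wnt/β-catenin pathway), both agents, or the vehicles of both (ethanol and 0.1% BSA in PBS) for 24 h. Each of the 4 groups had 3 libraries, 1 from each of 3 independent experiments, and libraries are named below by treatment and experiment number (vehicle 3). P values measure the spread between these experiments on 1 cell line.

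Cells make cholesterol from acetyl-CoA through mevalonate, isoprenoids and squalene. SREBP proteins switch on the genes of this route when membrane cholesterol is low: the escort protein SCAP carries them out of the endoplasmic reticulum, and INSIG proteins hold the complex back when sterols are plentiful. Oxysterols, formed from cholesterol, activate the LXR nuclear receptors, which switch on export genes such as *ABCA1* and the uptake inhibitor *MYLIP*. SREBP-1 also serves the genes of fatty acid synthesis and desaturation. Serum lipoproteins, present in the medium, supply cholesterol to cultured fibroblasts.

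The 12 libraries held 5363668 to 6261100 read equivalents (the deposited values divided by the read length of 40). Levels are given as CPM (reads scaled to library size, with TMM factors between libraries) and differences as log2 fold changes with their standard error (SE). Changes were called by edgeR's quasi-likelihood test over 12216 genes where the adjusted p was under 0.05. Summed levels of 8 fibroblast and myofibroblast markers were 22300 to 25800 CPM in all groups, a sum that held unlike patterns of single markers. *COL1A1* averaged 8570 CPM with 1,25(OH)2D3, 5370 with Wnt3A, 7680 with both and 5800 with vehicle, and *VIM* averaged 4750 CPM with 1,25(OH)2D3, 8080 with Wnt3A, 5780 with both and 6860 with vehicle. Markers of epithelium summed to 1.79 to 3.02 CPM, with 2 of 5 (*KRT20* and *VIL1*) at 0 in every library, and those of liver to at most 0.377 CPM. The 5 adipocyte markers summed to 9.79 to 14.7 CPM with 1,25(OH)2D3, 19.9 to 26.4 with Wnt3A, 11.9 to 16.1 with both and 16.2 to 22.8 with vehicle. Nearly all of this was *FABP4*, while *LEP* was at 0 in every library. The 3 leukocyte markers summed to 14.8 to 19 CPM with 1,25(OH)2D3, 6.75 to 10.1 with Wnt3A, 9.05 to 12.9 with both and 8 to 11.1 with vehicle, nearly all *CD14*, with *CD3E* at 0 throughout. The 3 endothelial markers summed to 2.59 to 5.65 CPM with 1,25(OH)2D3, 2.33 to 3.47 with Wnt3A, 2.12 to 3.87 with both and 3.65 to 14.1 with vehicle. The part of these cell types in the results below was not tested, and in bulk RNA a change in the cells present and a change in RNA per cell cannot be told apart.

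More of these genes were called higher with the combination of 1,25(OH)2D3 and Wnt3A than with either agent, a difference in counts that was not itself tested. With both agents, 24 of the 40 tested members were called higher than with vehicle and 0 lower, where 13.3% of all tested genes were called higher and 10.7% lower. Since the members were chosen with earlier results of these data known, their counts are no independent test against these shares. Of 34 other tested genes of these pathways, 4 were higher and 6 lower with both agents. At an unadjusted p under 0.05, 29 members were higher and 1 was lower with both agents, and DESeq2 called 20 higher and 0 lower. For comparisons between groups, here and below, shares of all genes were not counted at an unadjusted p or in DESeq2. With 1,25(OH)2D3 alone, 12 members were higher and 1 lower (8.54% and 6.12% of all genes). With Wnt3A alone, 11 members were higher and 2 lower (4.96% and 3.33% of all genes). DESeq2 called 8 higher and 1 lower with 1,25(OH)2D3, and 8 higher and 2 lower with Wnt3A. The median log2 fold change over the 40 members was 0.338 with both agents, 0.116 with 1,25(OH)2D3 and 0.146 with Wnt3A, while over all 12216 genes it lay between -0.00373 and 0.00166. These 3 comparisons share the vehicle libraries. By role, the changes with both agents were called in 13 of 18 enzymes of the sterol route, 3 of 5 sensing genes, 2 of 4 transport genes, 1 of 3 tested efflux genes and 5 of 10 fatty acid genes. With the experiment number in the fit as a replicate block, the count for both agents was 28 higher and 1 lower, where 17.3% of all genes were called higher and 16.1% lower in that fit. Calls against vehicle that the block added are given with their genes below.

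**Figure D1:**
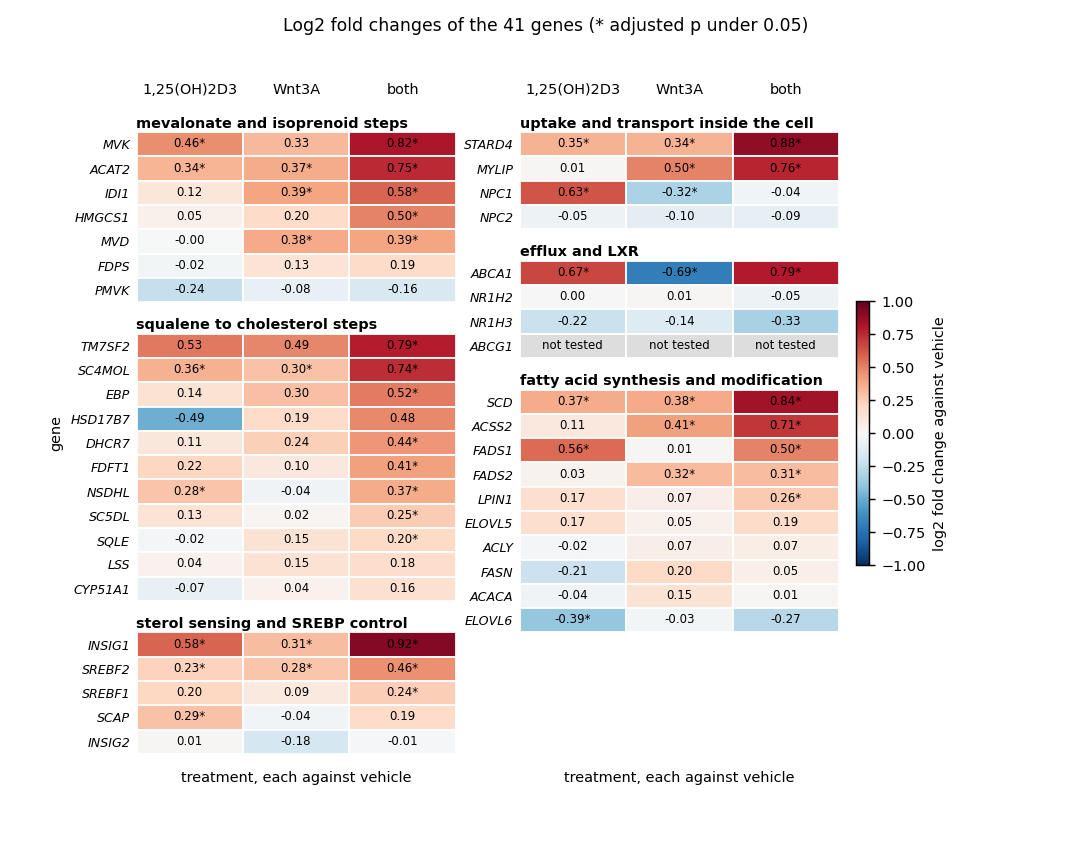
Log2 fold change of each of the 41 genes (rows, grouped by role) with 1,25(OH)2D3, Wnt3A or both agents against vehicle (columns, 3 libraries per group), coloured from -1 (blue) to 1 (red), with an asterisk at an adjusted p under 0.05. The column for both agents holds 24 asterisks, all on positive values, and *NPC1* and *ABCA1* are red with 1,25(OH)2D3 and blue with Wnt3A.

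Called higher with each agent alone and again with the combination were 6 members: *INSIG1*, *SREBF2*, *SC4MOL*, *ACAT2*, *STARD4* and *SCD*. The share of all genes with all 3 calls was not counted, and the 3 comparisons use the same vehicle libraries. They come from different roles, and each reached its highest level with both agents. In DESeq2 *INSIG1*, *SC4MOL* and *SCD* had all 3 calls, while *SREBF2* (adjusted p = 0.0656) and *ACAT2* (0.0579) were not called with 1,25(OH)2D3, nor *STARD4* with Wnt3A (0.0761). *INSIG1* encodes the sterol-dependent anchor that holds SCAP and SREBP in the endoplasmic reticulum, and is itself an SREBP target. It had 139, 135 and 127 CPM with 1,25(OH)2D3, 114, 111 and 107 CPM with Wnt3A, 176, 172 and 159 CPM with both agents, and 87.5, 85.1 and 95.3 CPM with vehicle. None of the 4 groups of libraries overlapped for this gene. Against vehicle, the log2 level of *INSIG1* differed by 0.58 with 1,25(OH)2D3 (SE 0.0703, adjusted p = 1.09e-06), while Wnt3A changed it by 0.31 (SE 0.0709, adjusted p = 0.00502). The change with 1,25(OH)2D3 exceeded that with Wnt3A, by 0.28 in the direct contrast of the single agents (SE 0.0692, adjusted p = 0.00457).

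*SCD* encodes stearoyl-CoA desaturase, which places the double bond of oleate and palmitoleate. Its levels were 192, 218 and 181 CPM with 1,25(OH)2D3, 190, 210 and 197 CPM with Wnt3A, 262, 287 and 269 CPM with both agents, and 146, 159 and 153 CPM with vehicle. The single agents gave overlapping levels, all above vehicle and all below the combination. *SCD* changed by 0.37 with 1,25(OH)2D3 (SE 0.0721, adjusted p = 0.000637), by 0.38 with Wnt3A (SE 0.0718, adjusted p = 0.000747) and by 0.84 with both (SE 0.0711, adjusted p = 1.69e-09). *SC4MOL* (now *MSMO1*) encodes the oxidase that starts the removal of the C4 methyl groups of the sterol ring. It had 87.9, 85.5 and 82.9 CPM with 1,25(OH)2D3, 82.3, 83.1 and 80.6 CPM with Wnt3A, 109, 118 and 108 CPM with both, and 64.3, 63.5 and 72.5 CPM with vehicle. Here too the single agents overlapped, between vehicle and the combination. The Wnt3A change of *SC4MOL* (log2 fold change 0.30, SE 0.0738, adjusted p = 0.00998) was not called without vehicle 2 (adjusted p = 0.0772).

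*STARD4* encodes a soluble carrier of cholesterol between membranes. It had 41, 37.7 and 43 CPM with 1,25(OH)2D3, 39.1, 37.1 and 45.1 CPM with Wnt3A, 58.5, 60.4 and 57.5 CPM with both agents, and 29.2, 31.7 and 34.6 CPM with vehicle. All 3 libraries with both agents lay above the other 9. With both agents the log2 level of *STARD4* rose by 0.88 (SE 0.0924, adjusted p = 5.87e-08). With the single agents the change was 0.35 for 1,25(OH)2D3 (SE 0.0975, adjusted p = 0.0158) and 0.34 for Wnt3A (SE 0.0967, adjusted p = 0.0233). Both of these single-agent calls were lost without vehicle 1, vehicle 2 or the third library of the treatment, with adjusted p up to 0.0803 for 1,25(OH)2D3 and up to 0.186 for Wnt3A.

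*ACAT2* encodes the cytosolic thiolase that joins acetyl-CoA units at the head of the pathway. It had 43.4, 37.7 and 42.4 CPM with 1,25(OH)2D3, 42.5, 44.2 and 39.4 CPM with Wnt3A, 58.7, 49.9 and 55.7 CPM with both, and 34.8, 33.6 and 29.1 CPM with vehicle. *ACAT2* rose by 0.34 with 1,25(OH)2D3 (SE 0.0988, adjusted p = 0.0194), by 0.37 with Wnt3A (SE 0.0978, adjusted p = 0.0152) and by 0.75 with both (SE 0.0946, adjusted p = 1.27e-06). *SREBF2* encodes SREBP-2, the main activator of the sterol genes. It had 104, 118 and 113 CPM with 1,25(OH)2D3, 118, 116 and 112 CPM with Wnt3A, 134, 135 and 124 CPM with both, and 92, 96.2 and 97.8 CPM with vehicle. The vehicle libraries were lowest and the combination highest for both genes. *SREBF2* rose by 0.23 with 1,25(OH)2D3 (SE 0.0693, adjusted p = 0.0262), by 0.28 with Wnt3A (SE 0.0688, adjusted p = 0.00946) and by 0.46 with both (SE 0.0682, adjusted p = 1.59e-05). For *ACAT2*, the call with 1,25(OH)2D3 was lost without vehicle 3 or 1,25(OH)2D3 1 or 3 (adjusted p up to 0.103), and that with Wnt3A without vehicle 3 or Wnt3A 1 or 2 (up to 0.0949). For *SREBF2*, the call with 1,25(OH)2D3 was lost without vehicle 1 or 2 or 1,25(OH)2D3 2 or 3 (up to 0.138), and that with Wnt3A without Wnt3A 1 (0.0548).

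**Figure D2:**
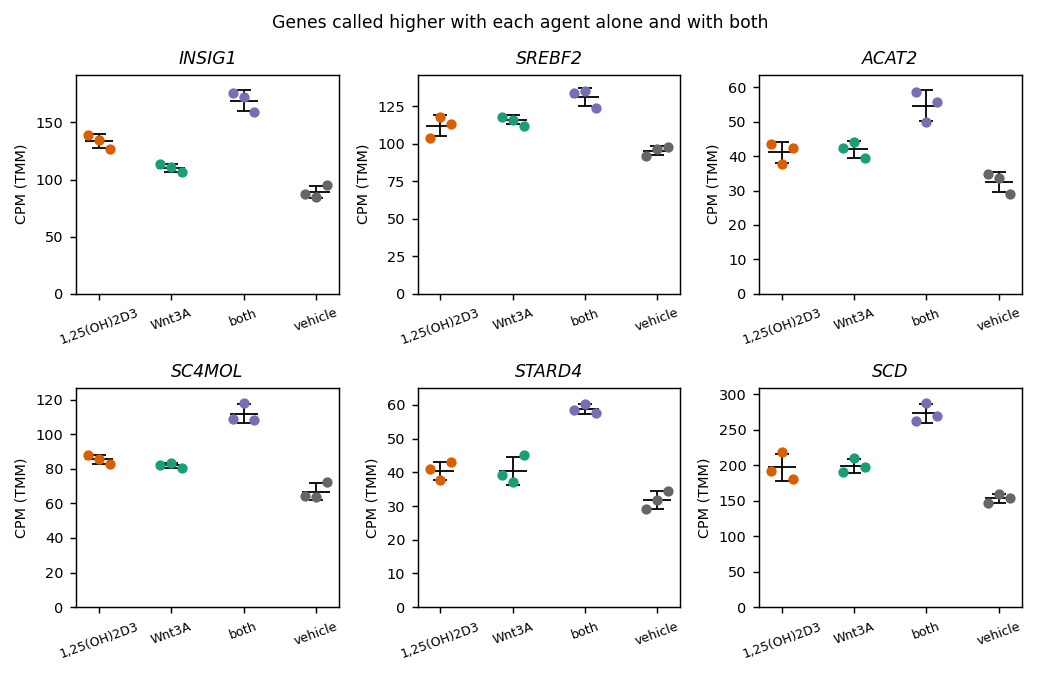
Level in CPM of *INSIG1*, *SREBF2*, *ACAT2*, *SC4MOL*, *STARD4* and *SCD* in each library (points) by treatment (x axis), with the mean and SD of 3 libraries (bars). The 3 libraries with both agents sit above all 9 others in each panel, for *INSIG1* at 159 to 176 CPM against 85.1 to 139 CPM.

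The stretches of genome before the starts of these genes are shown because the genes rose together with 2 unlike agents. RefSeq promoters (GRCh38.p14, 250 bases before to 50 after a start) were matched for 36 members (53 promoters, *SC4MOL* as *MSMO1* and *SC5DL* as *SC5D*), and not for *ACAT2*, *SQLE*, *FDFT1*, *ABCG1* and *FASN*. Of the 6 genes, 5 had an entry, and the 250 bases before the start are printed below, on the strand of the gene. Capitals mark CCAAT, the core bound by NF-Y, on either strand (ATTGG on the printed one), and TCACNCCAC, a form of the sterol regulatory element that SREBP binds. These marks do not overlap in the printed sequences.
The stretches are chr7:155297628-155297877 for *INSIG1* (plus strand), chr4:165327419-165327668 for *SC4MOL* (plus strand), chr22:41832855-41833104 for *SREBF2* (plus strand), chr5:111512536-111512785 for *STARD4* (minus strand) and chr10:100346983-100347232 for *SCD* (plus strand).
INSIG1: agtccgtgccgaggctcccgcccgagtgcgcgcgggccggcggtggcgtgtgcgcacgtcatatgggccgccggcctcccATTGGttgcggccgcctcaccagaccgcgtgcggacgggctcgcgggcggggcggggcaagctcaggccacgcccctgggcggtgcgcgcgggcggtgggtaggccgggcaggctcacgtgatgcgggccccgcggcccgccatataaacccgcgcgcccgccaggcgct
SC4MOL: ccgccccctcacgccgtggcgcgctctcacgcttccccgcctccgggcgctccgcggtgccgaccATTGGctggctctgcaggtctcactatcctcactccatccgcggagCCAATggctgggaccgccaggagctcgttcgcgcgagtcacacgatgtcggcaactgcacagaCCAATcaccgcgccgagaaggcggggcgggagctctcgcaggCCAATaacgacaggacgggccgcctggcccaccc
SREBF2: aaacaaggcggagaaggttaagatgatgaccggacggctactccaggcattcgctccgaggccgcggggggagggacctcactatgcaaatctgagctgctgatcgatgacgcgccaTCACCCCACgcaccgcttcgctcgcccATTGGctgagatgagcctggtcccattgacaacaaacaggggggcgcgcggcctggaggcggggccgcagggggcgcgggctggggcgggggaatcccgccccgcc
STARD4: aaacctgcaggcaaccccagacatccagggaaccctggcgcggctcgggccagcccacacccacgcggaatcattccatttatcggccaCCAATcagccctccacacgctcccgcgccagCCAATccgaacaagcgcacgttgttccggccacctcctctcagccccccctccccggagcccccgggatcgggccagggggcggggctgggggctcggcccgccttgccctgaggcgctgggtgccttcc
SCD: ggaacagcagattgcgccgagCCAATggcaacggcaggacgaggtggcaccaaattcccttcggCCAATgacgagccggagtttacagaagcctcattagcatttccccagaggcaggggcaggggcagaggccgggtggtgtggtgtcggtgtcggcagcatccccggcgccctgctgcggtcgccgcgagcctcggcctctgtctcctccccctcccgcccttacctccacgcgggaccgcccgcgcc
CCAAT stood 1 time in the *INSIG1* window, 4 times in that of *SC4MOL*, 1 time in that of *SREBF2*, and 2 times each in those of *STARD4* and *SCD*. The 4 matches of *SC4MOL* began 185, 139, 76 and 34 bases before the start. TCACNCCAC was found in 1 of the 53 member promoters, that of *SREBF2*, 133 bases before the start, with CCAAT 106 bases before it. Among all 35116 RefSeq promoters, 1.13% held TCACNCCAC and 34.6% held CCAAT. That core was in 29 of 53 member promoters (54.7%), with 19 of 30 (63.3%) for members called higher with both agents and 10 of 23 (43.5%) for the other members. Members with several promoters count more than once. The difference between these shares and the part of NF-Y in the changes were not tested. GGGCGG, the core bound by Sp1, was in 45 of 53 member promoters and in 45.0% of all, and CTTTGAT, a form bound by TCF/LEF proteins, in 0 of 53 and in 2.62% of all. All were searched on both strands, and these are matches of letters, not bound sites.

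The early route from acetyl-CoA to farnesyl diphosphate rose in 5 of 7 members with both agents, *MVK*, *ACAT2*, *IDI1*, *HMGCS1* and *MVD*. *IDI1*, which interconverts the isoprenoid building blocks, had 92.5, 77.6 and 80.5 CPM with 1,25(OH)2D3, 103, 99.3 and 100 CPM with Wnt3A, 115, 118 and 114 CPM with both, and 79.8, 73.1 and 78.3 CPM with vehicle. The libraries with 1,25(OH)2D3 overlapped those with vehicle, while all those with Wnt3A and with both agents were higher. *IDI1* was called with Wnt3A (0.39 on the log2 scale, SE 0.0734, adjusted p = 0.00067) and also with both agents (0.58, SE 0.0726, adjusted p = 1.04e-06), but not with 1,25(OH)2D3 (0.12, SE 0.075, adjusted p = 0.331). The single agents differed for this gene by -0.27 (1,25(OH)2D3 against Wnt3A, SE 0.0734, adjusted p = 0.00782), a call lost without 1,25(OH)2D3 2 (adjusted p = 0.0624). *MVD*, the decarboxylase that forms isopentenyl diphosphate, showed the same division, with means of 27.4 ± 0.82 CPM with 1,25(OH)2D3, 35.6 ± 3.86 CPM with Wnt3A, 36 ± 0.918 CPM with both and 27.4 ± 2.39 CPM with vehicle (SD, n = 3 each). Its single agents differed by -0.38 (SE 0.102, adjusted p = 0.00762). The call of *MVD* with Wnt3A against vehicle (0.38, SE 0.1, adjusted p = 0.016) was lost without vehicle 2 or Wnt3A 1 or 2 (adjusted p up to 0.123). It was also lost in DESeq2 (adjusted p = 0.0682).

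*HMGCS1*, the synthase that makes HMG-CoA, was called higher with the combination and, in the fit without the block, with neither agent alone. Its levels were 84.9, 74.8 and 75 CPM with 1,25(OH)2D3, 87, 86.5 and 86.1 CPM with Wnt3A, 108, 110 and 102 CPM with both, and 70.3, 77.6 and 78.8 CPM with vehicle. With 1,25(OH)2D3 the libraries overlapped vehicle, with Wnt3A they lay just above it, and with both they lay clear of all others. On the log2 scale *HMGCS1* differed from vehicle by 0.05 with 1,25(OH)2D3 (SE 0.0751, adjusted p = 0.725), 0.20 with Wnt3A (SE 0.074, adjusted p = 0.122, 0.0464 with the replicate block) and 0.50 with both agents (SE 0.0728, adjusted p = 1.2e-05). *MVK*, mevalonate kinase, had 24.1, 22 and 18.3 CPM with 1,25(OH)2D3, 22, 17.7 and 18.8 CPM with Wnt3A, 25.1, 29.9 and 27.3 CPM with both, and 16.3, 18.7 and 11.6 CPM with vehicle. Its call with both agents (log2 fold change 0.82, SE 0.141, adjusted p = 0.000104) held with each library left out. The call of *MVK* with 1,25(OH)2D3 (0.46, SE 0.149, adjusted p = 0.0366) was lost without vehicle 1 or 3 or 1,25(OH)2D3 1 or 2 (up to 0.204). It was also lost with the compared groups alone and in DESeq2 (adjusted p = 0.0787). The other kinase of the route, *PMVK*, went below vehicle in the mean of every treatment (17.1, 19.1 and 18.1 CPM with 1,25(OH)2D3, Wnt3A and both, against 20.2 CPM with vehicle) and was called in none. *FDPS*, the farnesyl diphosphate synthase gene, had a log2 fold change of 0.19 with both agents (adjusted p = 0.0776), called with the replicate block (adjusted p = 0.0312).

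Among the 11 genes from squalene to cholesterol, 8 were called higher with both agents, 2 with 1,25(OH)2D3 (*SC4MOL* and *NSDHL*) and 1 with Wnt3A (*SC4MOL*), and none was lower at an unadjusted p under 0.05 or in DESeq2. DESeq2 called 5 higher with both agents, 1 with 1,25(OH)2D3 and 1 with Wnt3A. The levels of *DHCR7*, the last reductase of the route and the enzyme that removes the vitamin D precursor 7-dehydrocholesterol, were 56.9, 61.3 and 61.6 CPM with 1,25(OH)2D3, 66.3, 67.7 and 61.8 CPM with Wnt3A, 67.7, 78.9 and 78.1 CPM with both, and 52.7, 57.3 and 56.1 CPM with vehicle. The combination lay above every vehicle library and every 1,25(OH)2D3 library, but 1 of its libraries lay at the top of the Wnt3A range. *DHCR7* differed from vehicle by 0.11 with 1,25(OH)2D3 (SE 0.0822, adjusted p = 0.404), 0.24 with Wnt3A (SE 0.0809, adjusted p = 0.0748, 0.0175 with the block) and 0.44 with both (SE 0.0797, adjusted p = 0.000184). *FDFT1*, squalene synthase, had 92.4, 85 and 79.7 CPM with 1,25(OH)2D3, 76.3, 87.4 and 74.1 CPM with Wnt3A, 96.8, 97.7 and 99.1 CPM with both, and 79.8, 71.2 and 70.2 CPM with vehicle. Its libraries with both agents were the highest, while each single agent overlapped vehicle. The combined change of *FDFT1* was 0.41 (SE 0.0789, adjusted p = 0.000353), against 0.22 with 1,25(OH)2D3 (adjusted p = 0.0682, 0.0168 with the block) and 0.10 with Wnt3A (adjusted p = 0.582).

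*EBP*, the sterol isomerase gene, had 34.7, 30.3 and 32 CPM with 1,25(OH)2D3, 40.7, 33.2 and 33.9 CPM with Wnt3A, 42.8, 43.2 and 40 CPM with both, and 32.9, 28.6 and 26.4 CPM with vehicle. All libraries with Wnt3A or with both were above those with vehicle. *EBP* changed by 0.52 with both (SE 0.102, adjusted p = 0.000437), while for Wnt3A alone the value was 0.30 (SE 0.104, adjusted p = 0.0851, 0.0195 with the block). *NSDHL*, which acts beside *SC4MOL* in removing the C4 methyl groups, followed 1,25(OH)2D3 instead, with 46.3 ± 5.46 CPM with 1,25(OH)2D3, 37 ± 1.54 CPM with Wnt3A, 49.2 ± 1.08 CPM with both and 38.1 ± 1.3 CPM with vehicle (SD, n = 3 each). *NSDHL* rose by 0.28 with 1,25(OH)2D3 (SE 0.091, adjusted p = 0.0375) and 0.37 with both (SE 0.0895, adjusted p = 0.00327), and the single agents differed by 0.32 (SE 0.0916, adjusted p = 0.0116). The first of these calls was lost without any 1 vehicle library, without 1,25(OH)2D3 2 or without both agents 2 (adjusted p up to 0.249), and the last without 1,25(OH)2D3 2 or Wnt3A 3 (up to 0.115). That first call was also lost with library totals, with the compared groups alone and in DESeq2 (adjusted p = 0.121).

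The remaining calls in this stretch were smaller or less stable. The combined change was 0.79 for the sterol reductase gene *TM7SF2* (SE 0.224, adjusted p = 0.0114), which had only 18 to 50 reads per library, and its call was lost without vehicle 1 or both agents 2 (adjusted p up to 0.105). It was 0.25 for the desaturase gene *SC5DL* (SE 0.0802, adjusted p = 0.022), lost without vehicle 1 or 2 or both agents 1 (up to 0.0823). It was 0.20 for *SQLE*, the oxygenase that forms squalene epoxide (SE 0.0727, adjusted p = 0.0434). The call of *SQLE* was lost in 7 of 12 fits that left out 1 library: vehicle 1 or 2, 1,25(OH)2D3 2, Wnt3A 3 or any library with both agents (up to 0.166). DESeq2 called none of *TM7SF2*, *SC5DL* and *SQLE* (adjusted p 0.0598, 0.0616 and 0.126). *LSS*, the cyclase that closes the sterol ring (0.18, adjusted p = 0.0816, 0.0085 with the block), *CYP51A1*, the C14 demethylase (0.16, adjusted p = 0.132), and *HSD17B7*, a ketosteroid reductase (0.48, SE 0.261, adjusted p = 0.189), were not called. *HSD17B7* had 10 to 27 reads per library, and its 3 libraries with 1,25(OH)2D3 (1.85 to 2.39 CPM) were below those with both agents (3.25 to 4.98 CPM) and with vehicle (2.61 to 3.2 CPM).

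Among the sensing genes, the paralogs *INSIG1* and *INSIG2* behaved differently. *INSIG2*, whose product also holds SCAP but whose gene is not known as a strong SREBP target, had 34, 33.8 and 38.4 CPM with 1,25(OH)2D3, 27.1, 35.8 and 30.8 CPM with Wnt3A, 34.3, 33.5 and 36.9 CPM with both agents, and 30.1, 33.3 and 42.1 CPM with vehicle. All groups overlapped. The log2 fold change of *INSIG2* with both agents was -0.01 (95% interval -0.248 to 0.227), and that of *INSIG1* was 0.92 (SE 0.0691, adjusted p = 1.71e-10), with no test made between the genes. *SCAP* had 118, 125 and 121 CPM with 1,25(OH)2D3, 101, 99.1 and 90.3 CPM with Wnt3A, 117, 112 and 109 CPM with both, and 98.6, 107 and 91.5 CPM with vehicle. The 6 libraries with 1,25(OH)2D3, alone or combined, were above the 6 without it. *SCAP* was called with 1,25(OH)2D3 (0.29, SE 0.0718, adjusted p = 0.006) and differed between the single agents by 0.33 (SE 0.0721, adjusted p = 0.00136), but with both agents its change was 0.19 (adjusted p = 0.0583, 0.0134 with the block).

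*SREBF1*, the gene of SREBP-1, had 43, 47.8 and 49.4 CPM with 1,25(OH)2D3, 46, 41.1 and 42.6 CPM with Wnt3A, 46.8, 45.1 and 51.8 CPM with both, and 42.4, 37.9 and 41.3 CPM with vehicle. The libraries with both agents and with 1,25(OH)2D3 were above those with vehicle, in 1 case by no more than 43 against 42.4 CPM. The only call of *SREBF1* among the comparisons with vehicle was with both agents (0.24, SE 0.0892, adjusted p = 0.0495). It was lost in 8 of 12 fits without 1 library (vehicle 2 or 3, 1,25(OH)2D3 2 or 3, Wnt3A 3 or any with both agents, adjusted p up to 0.2), and DESeq2 gave an adjusted p of 0.154.

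The transport gene *NPC1* and the efflux gene *ABCA1* gave the members' largest differences between the single agents. *NPC1*, the lysosomal membrane protein that passes lipoprotein cholesterol on to the cell, had 301, 336 and 338 CPM with 1,25(OH)2D3, 174, 164 and 168 CPM with Wnt3A, 198, 211 and 207 CPM with both agents, and 191, 216 and 224 CPM with vehicle. 1,25(OH)2D3 raised it above all other libraries, Wnt3A lowered it below all others, and the combination overlapped vehicle. Against vehicle, *NPC1* changed by 0.63 with 1,25(OH)2D3 (SE 0.0684, adjusted p = 2.36e-07), -0.32 with Wnt3A (SE 0.0699, adjusted p = 0.00339) and -0.04 with both (95% interval -0.179 to 0.106, adjusted p = 0.756). Its soluble partner in the lysosome, *NPC2*, was called in no comparison and its group means lay between 188 and 202 CPM.

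*ABCA1*, the transporter that loads cholesterol onto apolipoprotein A-I, also went opposite ways. It had 38.8, 39.5 and 43.5 CPM with 1,25(OH)2D3, 16.5, 18.6 and 12.5 CPM with Wnt3A, 46.1, 44.6 and 42.2 CPM with both agents, and 20.7, 26.2 and 29.4 CPM with vehicle. Unlike *NPC1*, it stayed at the level seen with 1,25(OH)2D3 when Wnt3A was also present, and these 2 groups overlapped. The log2 fold change of *ABCA1* was 0.67 with 1,25(OH)2D3 (SE 0.119, adjusted p = 0.000243), -0.69 with Wnt3A (SE 0.138, adjusted p = 0.00128) and 0.79 with both (SE 0.117, adjusted p = 1.26e-05). These calls of *NPC1* and *ABCA1* held with each of the 12 libraries left out. The LXR genes *NR1H3* and *NR1H2*, whose products switch on *ABCA1*, were called in no comparison. *NR1H2* had means of 56.7 to 58.9 CPM across the 4 groups. *NR1H3* had 7.85, 8.68 and 6.41 CPM with 1,25(OH)2D3, 5.87, 10 and 8.65 CPM with Wnt3A, 7.93, 6.83 and 6.67 CPM with both, and 9.39, 10.9 and 6.49 CPM with vehicle, so that all groups overlapped.

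*MYLIP*, an LXR target that marks lipoprotein receptors for degradation, followed Wnt3A. Its levels were 12.5, 17.2 and 13 CPM with 1,25(OH)2D3, 20.7, 19.9 and 19 CPM with Wnt3A, 24.3, 24.1 and 22.9 CPM with both, and 13.2, 15 and 13.8 CPM with vehicle. All 6 libraries with Wnt3A were above the 6 without it. *MYLIP* differed from vehicle by 0.50 with Wnt3A (SE 0.127, adjusted p = 0.0113), 0.76 with both (SE 0.123, adjusted p = 4.28e-05) and 0.01 with 1,25(OH)2D3 (95% interval -0.265 to 0.295). The Wnt3A call was lost without Wnt3A 1 (adjusted p = 0.0626) and in DESeq2 (0.0558). The single agents differed by -0.48 (SE 0.129, adjusted p = 0.00728, 0.052 without 1,25(OH)2D3 1). *MYLIP* and *ABCA1*, both known as LXR targets, differed in opposite directions between 1,25(OH)2D3 and Wnt3A. The part of LXR in these changes was not tested.

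**Figure D3:**
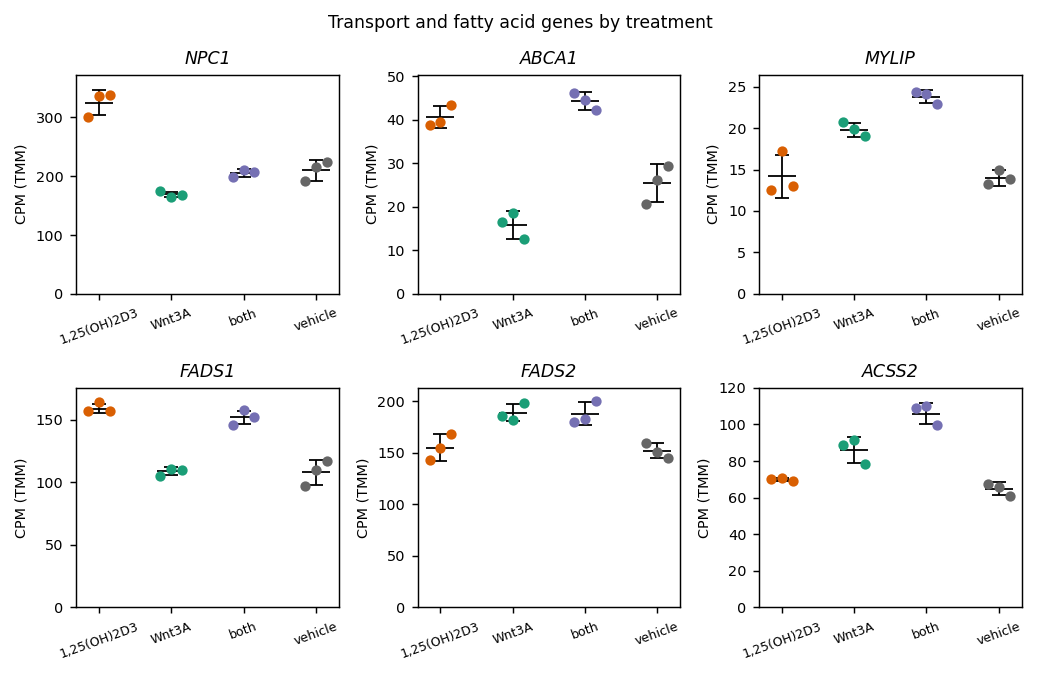
Level in CPM of *NPC1*, *ABCA1*, *MYLIP*, *FADS1*, *FADS2* and *ACSS2* in each library (points) by treatment (x axis), with the mean and SD of 3 libraries (bars). *NPC1* is highest with 1,25(OH)2D3 (301 to 338 CPM), *ABCA1* lowest with Wnt3A (12.5 to 18.6 CPM), and *MYLIP* and *ACSS2* are higher in the 6 libraries with Wnt3A.

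Fatty acid genes of the same step did not all respond alike. The desaturases of polyunsaturated fatty acids, *FADS1* and *FADS2*, which lie side by side in the genome, each answered to a different agent. *FADS1* (Δ5 desaturase) had 157, 164 and 157 CPM with 1,25(OH)2D3, 105, 111 and 110 CPM with Wnt3A, 146, 158 and 152 CPM with both, and 96.7, 110 and 117 CPM with vehicle. *FADS2* (Δ6 desaturase) had 143, 155 and 168 CPM with 1,25(OH)2D3, 186, 182 and 198 CPM with Wnt3A, 180, 183 and 200 CPM with both, and 159, 151 and 145 CPM with vehicle. For *FADS1* the 6 libraries with 1,25(OH)2D3 were the highest, and for *FADS2* the 6 with Wnt3A. *FADS1* changed by 0.56 with 1,25(OH)2D3 (SE 0.07, adjusted p = 1.69e-06) and by 0.01 with Wnt3A (95% interval -0.135 to 0.159). *FADS2* changed by 0.32 with Wnt3A (SE 0.07, adjusted p = 0.00364) and by 0.03 with 1,25(OH)2D3 (95% interval -0.112 to 0.18). Between the single agents, 1,25(OH)2D3 against Wnt3A, *FADS1* differed by 0.55 (SE 0.0701, adjusted p = 1.24e-06) and *FADS2* by -0.28 (SE 0.0702, adjusted p = 0.00451).

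*ACSS2*, which makes cytosolic acetyl-CoA from acetate, had 70, 70.5 and 68.8 CPM with 1,25(OH)2D3, 88.8, 91.5 and 78.1 CPM with Wnt3A, 109, 110 and 99.8 CPM with both, and 67.6, 65.9 and 61 CPM with vehicle. The libraries with 1,25(OH)2D3 lay just above vehicle, those with Wnt3A higher, and those with both highest, without overlap. Against vehicle, *ACSS2* changed by 0.11 with 1,25(OH)2D3 (adjusted p = 0.423), 0.41 with Wnt3A (SE 0.0772, adjusted p = 0.000738) and 0.71 with both (SE 0.0759, adjusted p = 7.44e-08). The enzymes of the synthesis itself were not called against vehicle. *FASN*, fatty acid synthase, had 121, 154 and 154 CPM with 1,25(OH)2D3, 189, 194 and 189 CPM with Wnt3A, 171, 168 and 177 CPM with both, and 148, 175 and 173 CPM with vehicle. It was called with neither agent against vehicle (-0.21, adjusted p = 0.0801, and 0.20, adjusted p = 0.144), but both changes were called with the block (adjusted p = 0.0064 and 0.00987), and the single agents differed by -0.41 (SE 0.0807, adjusted p = 0.000381).

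*ELOVL6*, which lengthens palmitate to stearate, was the 1 member called lower with 1,25(OH)2D3. It had 25.6, 25.3 and 25.4 CPM with 1,25(OH)2D3, 29.8, 33.4 and 34.9 CPM with Wnt3A, 27.1, 30.2 and 25.2 CPM with both, and 29.6, 33.1 and 37.1 CPM with vehicle. Its libraries with 1,25(OH)2D3 were below all vehicle libraries. *ELOVL6* differed from vehicle by -0.39 with 1,25(OH)2D3 (SE 0.107, adjusted p = 0.0147), lost without vehicle 3 (adjusted p = 0.0661), and with both agents it was -0.27 (adjusted p = 0.0587, 0.0233 with the block). *ACLY* and *ACACA*, which supply cytosolic acetyl-CoA and malonyl-CoA, were called against vehicle with no treatment, and with both agents their changes were 0.07 (95% interval -0.0539 to 0.2) and 0.01 (-0.163 to 0.181). *LPIN1*, a phosphatidate phosphatase of triglyceride synthesis, changed by 0.26 with both agents (SE 0.0818, adjusted p = 0.0225), a call lost without vehicle 1 or both agents 2 (up to 0.147). With 1,25(OH)2D3 its change was 0.17 (adjusted p = 0.185, 0.0373 with the block). The elongase gene *ELOVL5* changed by 0.19 with both (adjusted p = 0.0674, 0.00939 with the block) and by 0.17 with 1,25(OH)2D3 (adjusted p = 0.144, 0.0309 with the block).

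The single agents were also set against each other directly, a contrast added after the data were seen. With 1,25(OH)2D3, 6 of 40 members were higher than with Wnt3A (11.7% of all genes) and 7 were lower (10.7% of all genes). Whether these counts differ from the shares of all genes was not tested. Higher with 1,25(OH)2D3 than with Wnt3A were *ABCA1* (1.36, SE 0.13, adjusted p = 1.15e-08), *NPC1* (0.94, SE 0.0694, adjusted p = 1e-10), *FADS1*, *SCAP*, *NSDHL* and *INSIG1*. Lower were *MYLIP*, *FASN*, *MVD*, *ELOVL6*, *ACSS2*, *FADS2* and *IDI1*. *ELOVL6* differed by -0.36 (SE 0.108, adjusted p = 0.0167), a call lost without 1,25(OH)2D3 2 or Wnt3A 2 or 3 (adjusted p up to 0.074). That call was also lost in DESeq2 (adjusted p = 0.0585).

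Each agent was also compared in the presence of the other, and these comparisons share no library with that of the same agent alone against vehicle. Both agents against Wnt3A alone gave 14 members higher and 0 lower (7.54% and 5.9% of all genes). At an unadjusted p under 0.05, 21 were higher and 1 lower, and in DESeq2 13 and 0, without shares of all genes at these settings. Both agents against 1,25(OH)2D3 alone gave 16 higher and 1 lower (5.2% and 4.03% of all genes). The median log2 fold change of the 40 members was 0.197 when 1,25(OH)2D3 was added to Wnt3A and 0.22 when Wnt3A was added to 1,25(OH)2D3. For 1,25(OH)2D3, 31 of 40 members had the same sign alone and added (77.5%, against 76.9% of all genes), and 11 were called both times (27.5%, against 9.2% of all genes). For Wnt3A, 34 of 40 had the same sign (85%, against 69.1%) and 12 were called both times (30%, against 5.98%). *INSIG1* rose by 0.61 when 1,25(OH)2D3 was added (SE 0.068, adjusted p = 3.45e-07) and by 0.34 when Wnt3A was added (SE 0.0674, adjusted p = 0.00113). *HMGCS1* rose by 0.30 when 1,25(OH)2D3 was added (SE 0.072, adjusted p = 0.00522) and by 0.45 when Wnt3A was (SE 0.0731, adjusted p = 0.00012). *STARD4* rose by 0.54 when 1,25(OH)2D3 was added (SE 0.0897, adjusted p = 0.000126) and by 0.54 when Wnt3A was (SE 0.0904, adjusted p = 0.000169).

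The 1 member lower with both agents than with 1,25(OH)2D3 was *NPC1* (-0.66, SE 0.0685, adjusted p = 1.79e-07), and *NPC1* was higher with both than with Wnt3A (0.28, SE 0.07, adjusted p = 0.00729). *ABCA1* was 2.8-fold higher with both agents than with Wnt3A alone (log2 fold change 1.49, SE 0.127, adjusted p = 4.13e-09). Against 1,25(OH)2D3 alone it differed by 0.13 (SE 0.111, adjusted p = 0.643). *HSD17B7* was higher with both agents than with 1,25(OH)2D3 (0.97, SE 0.287, adjusted p = 0.0297), a call lost without 1,25(OH)2D3 2 or 3 or both agents 1 or 2 (adjusted p up to 0.149). That call was also lost in DESeq2 (adjusted p = 0.151). With the replicate block, 20 members were higher when 1,25(OH)2D3 was added (11.4% of all genes) and 21 when Wnt3A was added (7.71% of all genes). The members added by the block were *IDI1*, *SC5DL*, *DHCR7*, *EBP*, *SREBF2* and *LPIN1* for 1,25(OH)2D3, and *SQLE*, *FDFT1*, *FDPS*, *CYP51A1* and *MVK* for Wnt3A.

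**Figure D4:**
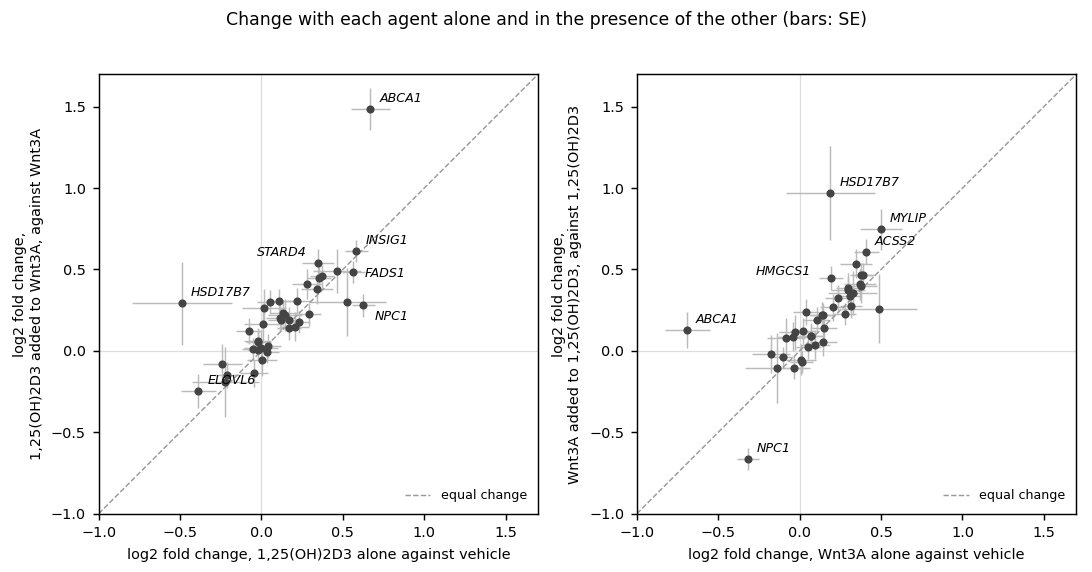
Log2 fold change of each of 40 members with an agent alone against vehicle (x axis) and with the same agent in the presence of the other (y axis), for 1,25(OH)2D3 (left) and Wnt3A (right), with SE bars and a dashed line of equal change. *ABCA1* lies above the line in both panels, at 0.67 and 1.49 for 1,25(OH)2D3 and at -0.69 and 0.13 for Wnt3A, and *NPC1* lies below it in both.

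The interaction asks whether the combined log2 change differs from the sum of the single changes. No member was called (0% of all genes were), DESeq2 called 0, and 3 of 40 members had an unadjusted p under 0.05 (354 of 12216 genes). The interaction was positive in 29 of 40 members, with a median of 0.0704, and in 16 of the 18 enzymes of the sterol route, with a median of 0.0856, while it was positive in 5958 of 12216 genes. All members were measured in the same 12 libraries, so their signs are not independent observations, and these counts were not tested. The 3 members under that unadjusted p were *ABCA1* (0.82, 95% interval 0.453 to 1.18, adjusted p = 0.406), *NPC1* (-0.35, 95% interval -0.547 to -0.144, adjusted p = 1) and *HMGCS1* (0.25, 95% interval 0.036 to 0.465, adjusted p = 1). With the replicate block, *ABCA1* (adjusted p = 0.00718) and *NPC1* (adjusted p = 0.026) were called, where 18 of 12216 genes were called in that fit. For *SCD* the sum of the single changes was 0.75 and the combined change 0.84, and for *INSIG1* they were 0.89 and 0.92, each differing by less than its SE.

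A further 37 genes of these pathways, were listed beside the members. Of the 34 tested, 4 were higher and 6 lower with both agents (13.3% and 10.7% of all genes). With 1,25(OH)2D3 they were 6 and 3 (8.54% and 6.12% of all genes), and with Wnt3A 1 and 4 (4.96% and 3.33%). Their median log2 fold changes were 0.04 with both, 0.00454 with 1,25(OH)2D3 and 0.00121 with Wnt3A. *TMEM97*, the gene of the sigma-2 receptor, which binds NPC1, had 154, 168 and 152 CPM with 1,25(OH)2D3, 81.5, 72.5 and 71.2 CPM with Wnt3A, 153, 161 and 151 CPM with both, and 77.2, 70.2 and 64.5 CPM with vehicle. It was 1.16 higher on the log2 scale with 1,25(OH)2D3 (SE 0.0764, adjusted p = 2.73e-11) and 1.14 with both (SE 0.0761, adjusted p = 1.68e-11). Lower with both agents were *FADS3*, a relative of *FADS1* (-0.86, SE 0.0844, adjusted p = 2.03e-08), *PLIN2*, a coat protein of lipid droplets (-0.56, SE 0.0975, adjusted p = 0.000107), and *ACSL4*, an acyl-CoA synthetase (-0.37, SE 0.076, adjusted p = 0.000643).

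Some members share exon sequence with other genes in GENCODE v44 lifted to GRCh37, and reads of such stretches cannot be assigned with certainty since the use of strand in counting is not given. Among those named as changed, *HMGCS1* shares 2497 exon bases with an antisense lncRNA, *IDI1* shares 643 with *IDI2-AS1*, *SREBF2* 731 with *SREBF2-AS1*, *EBP* 644 with another protein-coding gene on its own strand, and *SREBF1* 442 with *RAI1*. *ELOVL6* shares 240 with an antisense lncRNA. Of genes called only with the block, *CYP51A1* shares 2844 and 2827 with protein-coding genes on its own strand. *FDPS* shares 693 with the antisense *RUSC1-AS1*, and *LSS* 448 and 122 with antisense lncRNAs. *FADS1* and *FADS2* overlap each other in this annotation. *NPC1*, *ACAT2* and *STARD4* share 198, 133 and 124 exon bases with the opposite strand genes *RMC1*, *SOD2* and *STARD4-AS1*. *INSIG1* (chr7:155089486-155101945), *SC4MOL* (chr4:166248818-166264225), *SCD* (chr10:102106772-102124588) and *ABCA1* (chr9:107543284-107690527), positions in GRCh37, share none.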

How the data were processed

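RNA-seq of 12 libraries of CCD-18Co cells was used, 3 for each of 4 treatments. The authors made stranded polyA+ libraries, sequenced single reads of 40 bases and used ELAND v2e (CASAVA 1.8) for alignment to GRCh37/hg19. Their deposited table holds unnormalized counts per gene, which the authors call raw reads. The program that counted, its annotation and any strand setting were not given in the sources used here. In each library 78.2% to 80.9% of values from 1 to 400 were exact multiples of 40, so the values were read as counts of bases, divided by 40 and rounded. Totals were 5363668 to 6261100 read equivalents per library.

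By filterByExpr (minimum count 10), 12216 of 21893 genes were kept. Tests were made in edgeR 4.0.16 (R 4.3.3; TMM, robust quasi-likelihood F test, 1 fit of 12 libraries, no block) with Benjamini-Hochberg adjustment over all tested genes, a threshold of 0.05 and a prior count of 0.125 for log2 fold changes. Standard errors and 95% intervals of log2 fold changes come from the same fit. For the interaction, the 2 single log2 changes were subtracted from the combined one. The study used DESeq2 (here 1.42.0), which was run as an alternative, beside a replicate block, RLE scaling, library totals, other filters, the undivided values, the compared groups alone, a stricter threshold (0.01) and fits without each library. The script was tested on simulated data.

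Values per library are given for the 4 members of each role with the smallest p for both agents, for the top 3 by p with each single agent, for *SREBF1*, *SREBF2*, *INSIG1*, *INSIG2*, *ABCA1* and *SCD*, and, chosen after their values were seen, for *FASN* and *ELOVL6*. Of 37 other pathway genes, those among the 5 with the smallest p are named, except 1 that is not reported here. The members and lists were chosen with earlier results of these data known.

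The labels number the experiments 1 to 3 in each group. Deviations from the group means, over 9477 genes, correlated at 0.154 to 0.427 in the 18 same-numbered pairs of libraries and at -0.314 to -0.00401 in the 36 other pairs. Each of the 12 libraries correlated best with 1 of its own number, so the numbers were taken to pair the samples. The main fit left this pairing out, and the fit with the replicate block included it.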

Additional observations from a re-analysis of the deposited data

Results flagged for a closer look

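The effect of 1,25(OH)2D3 on *ABCA1* and on *NPC1* differed with the presence of Wnt3A when the experiment was a replicate block in the fit, by edgeR's test of the difference itself. For *ABCA1* the difference was 0.81 on the log2 scale (adjusted p = 0.00718). With the block, 1,25(OH)2D3 changed *ABCA1* by 1.48 in the presence of Wnt3A, against 0.67 alone. For *NPC1* the difference was -0.35 (adjusted p = 0.026), with changes of 0.28 and 0.63. In that fit 18 of 12216 genes had a called interaction. Without the block neither was called (adjusted p 0.406 and 1).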

How the results depend on the processing

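Over the 94 changes called for members, 1880 values were recomputed under alternatives, of which 1758 stayed called in the same direction, 122 were no longer called and 0 turned round. Leaving out 1 library accounted for 89 of the 122. The recomputed values include fits without a library of neither compared group, which keep all compared libraries. The share that stayed called is therefore no independent measure of stability. Under a threshold of 0.01, shares of all genes were not counted. Members higher were then 7 with 1,25(OH)2D3 and 7 with Wnt3A, and 10 with both agents against 1,25(OH)2D3. The 1 member lower with 1,25(OH)2D3 became 0. That count was 2 with the replicate block and 2 with no filter, and 0 to 2 with 1 library left out. Members lower with both agents against vehicle were 1 with the replicate block, and 0 to 1 with 1 library left out (1 without vehicle 1 or without both agents 2). Members higher with Wnt3A were 7 to 11 with 1 library left out (7 without Wnt3A 1). Interactions called among members were 2 with the replicate block (18 of 12216 genes in that fit) and 1 with no filter. The block changed calls of members as given in the report, and that of *ACACA*, lower with 1,25(OH)2D3 than with Wnt3A only with it. Over all tested genes, the block called 1594 higher and 1365 lower with 1,25(OH)2D3, against 1043 and 748 without it. Against TMM, library totals moved the median log2 fold change of all genes by at most 0.0265 and RLE by at most 0.00761. Genes with few reads, *TM7SF2* (18 to 50 reads per library), *HSD17B7* (10 to 27) and *NR1H3* (34 to 68), allow less precise changes, and *ABCG1* (0 to 3) none. The cause of the lost calls was not tested.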
